A study of Mus musculus with 6 samples.

Results

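Complex I, the NADH dehydrogenase of mitochondria, was followed through its nuclear genes in pancreatic islets of mice with and without the bile acid receptor FXR. The genes were taken by name, by a symbol that begins with Nduf in the count table, with *Ndufa12* left out, and 43 of the 19342 genes are described. RNA was sequenced from islets of FXR-/- mice and of wild-type FXR+/+ mice at 3 months of age, with 3 libraries per genotype labelled female 1, male 1 and male 2. No treatment was given beyond isolation of the islets from the pancreas. FXR is a nuclear receptor encoded by *Nr1h4*, and the sources name no tissue to which its loss was limited. The labels do not say whether a library holds islets of 1 mouse or of several, and the p-values below therefore measure the spread between these libraries, which may be partly technical.

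Complex I takes electrons from NADH, passes them along a chain of iron-sulfur clusters to ubiquinone and pumps protons across the inner mitochondrial membrane. Its peripheral arm consists of the N module, where NADH is oxidized, and the Q module, where ubiquinone is reduced, while its membrane arm carries the proton pumps, which are encoded by mitochondrial DNA. The remaining subunits are encoded in the nucleus, and assembly factors put the modules together without staying in the finished enzyme. In β-cells the respiratory chain couples glucose oxidation to the ATP that triggers insulin secretion. The mitochondrially encoded subunits were not analysed here.

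The count table held between 20629306 and 30139235 counts per library, and all 43 genes passed the filter on low counts, with 14619 genes tested in all. The reads assigned to *Nr1h4* itself numbered 333, 274 and 386 without the knockout (FXR+/+) and 140, 145 and 138 with it (FXR-/-), in the order female 1, male 1, male 2 that is used throughout. *Nr1h4* was lower in every FXR-/- library but not at 0, with a log2 fold change of -1.07 (SE 0.160). The edgeR test with sex as a term did not call it (adjusted p = 0.217), while edgeR with the replicate number as a block did (adjusted p = 0.0441). Islet markers were high in every library, with *Ins1* and *Ins2* together at 17.5% to 23.9% of counts. Other marker sums are given as percentages after scaling between libraries, not as exact shares of the counts. The 23 markers of acinar cells, which surround islets, summed to 5.11% to 15.2% in FXR+/+ and 7.21% to 17.4% in FXR-/- libraries, and 8 endothelial markers to 0.0464% to 0.0555% and 0.0579% to 0.0921%. In such bulk samples fewer cells of a type and less RNA per cell cannot be told apart. The part of these cells in the values below was not tested, except that adding the acinar sum to the fit is one of the alternatives.

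None of the 43 genes passed the test in any of the fits tried. In edgeR's quasi-likelihood test 0 of the 43 were called at an adjusted p below 0.05, as were 0 of all 14619 genes, or 0%, with a lowest adjusted p of 0.129. The targeted gene *Nr1h4* was not called in this test either, so that a lack of calls does not show a lack of change. With the replicate number as a block edgeR called 0 of 43, against 0.157% of all genes, and DESeq2 called 0 of 43, against 1.29%. The lowest adjusted p of any of the 43 genes in any fit was 0.196, for *Ndufa4l2* with the block in edgeR. At an unadjusted p below 0.05 edgeR gave 6 of the 43, or 14.0%, against 10.3% of all genes. These were *Ndufa1*, *Ndufa11*, *Ndufb7*, *Ndufs7*, *Ndufa13* and *Ndufb6*. All 6 were higher in FXR-/- islets, as were 904 of the 1511 such genes among all tested. The genotypes did not overlap for 3 of the 43 genes, or 6.98%, against 15.4% of all genes. The 3 genes were *Ndufv3*, *Ndufb6* and *Ndufb7*, each higher in FXR-/- islets, as were 1173 of the 2250 such genes among all tested. Values are given as counts per 1000000 after scaling (CPM).

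**Figure D1:**
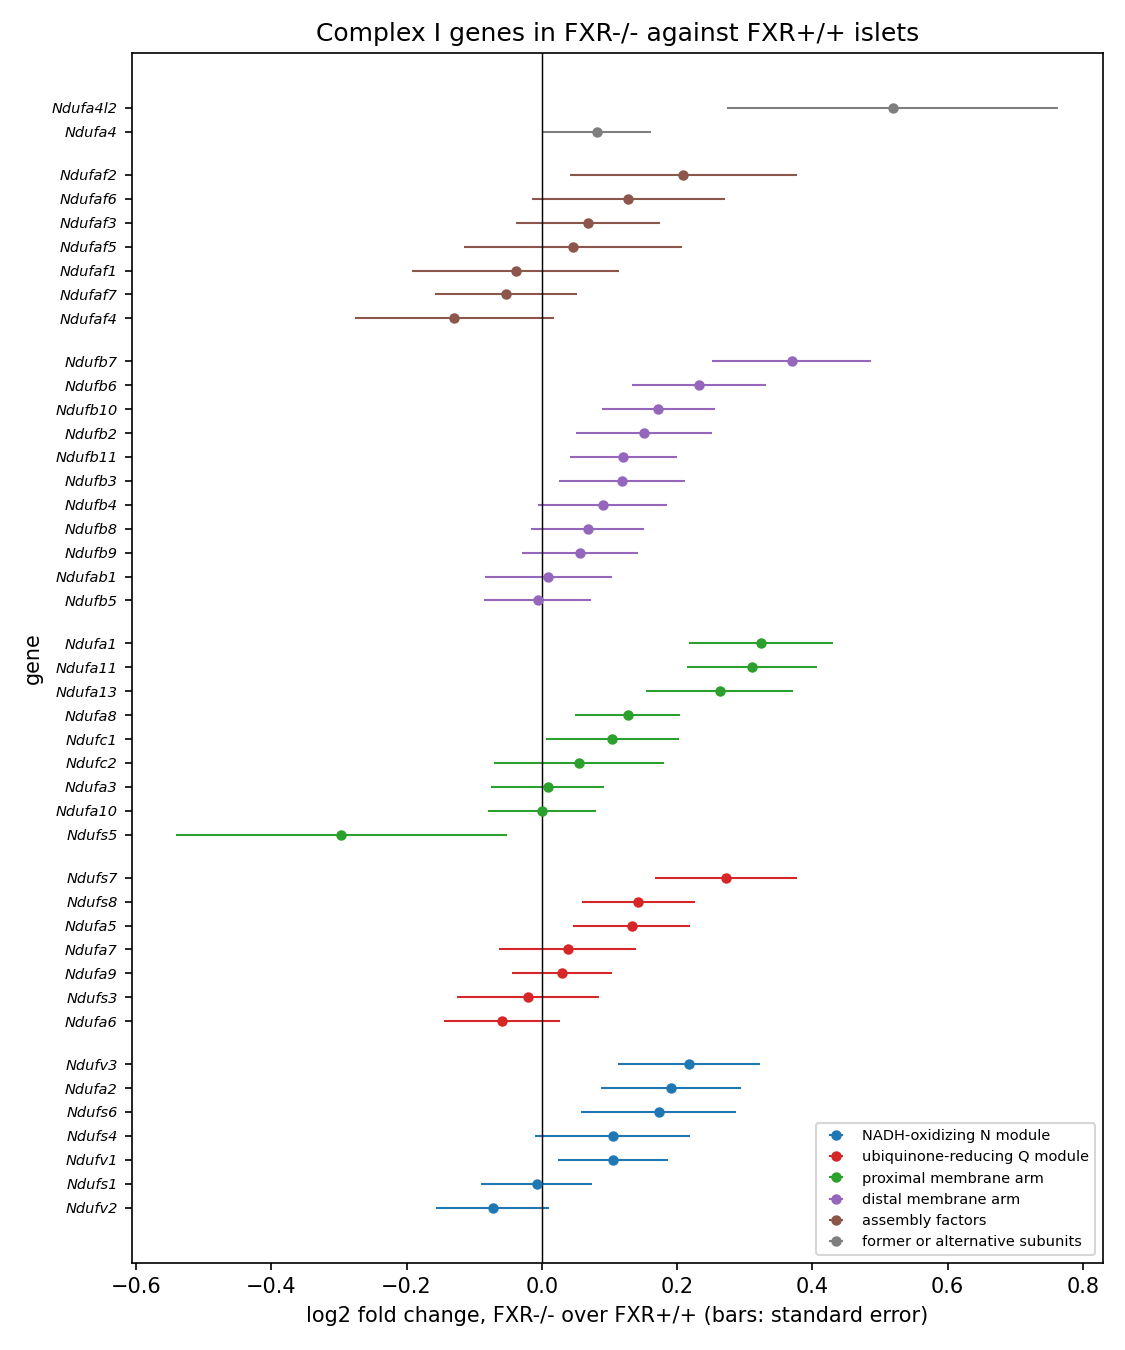
Log2 fold change of each of the 43 genes in FXR-/- over FXR+/+ islets (horizontal axis, bars: standard error), grouped and coloured by module. *Ndufa4l2* lies at 0.52, and the other 42 genes between -0.30 and 0.37.

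The N module holds the flavin and the first iron-sulfur clusters of the enzyme. Of its 7 genes 5 had a log2 fold change above 0 and 2 below, with a median of 0.11. *Ndufv1*, which binds the flavin that accepts electrons from NADH, was at 62.0, 70.8 and 65.6 CPM in FXR+/+ and 63.5, 78.8 and 71.5 CPM in FXR-/- islets. *Ndufv2*, an iron-sulfur subunit beside it, was at 58.5, 53.1 and 56.5 CPM and then 52.6, 50.6 and 56.6 CPM. For both genes the genotypes overlapped, with log2 fold changes of 0.11 (SE 0.081) and -0.07 (SE 0.083).

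*Ndufs1*, the largest subunit of the arm, which carries several of its clusters, was nearly level. It was at 63.7, 59.6 and 65.8 CPM in FXR+/+ and 63.8, 59.1 and 65.3 CPM in FXR-/- islets, and same-numbered libraries differed by ratios of 0.991 to 1.00. *Ndufv3*, an accessory subunit, was at 60.9, 57.9 and 51.4 CPM in FXR+/+ and 62.4, 62.2 and 73.1 CPM in FXR-/- islets. Its genotypes did not overlap, though by a narrow margin, and its log2 fold change of 0.22 (SE 0.105) had an adjusted p of 0.492 in edgeR. The accessory subunits *Ndufa2*, *Ndufs6* and *Ndufs4* had log2 fold changes of 0.19, 0.17 and 0.11.

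In the Q module 5 of the 7 genes described were above 0, with a median log2 fold change of 0.04. *Ndufs7*, which carries the last iron-sulfur cluster before ubiquinone, was at 45.2, 51.3 and 44.8 CPM in FXR+/+ and 48.6, 66.5 and 56.4 CPM in FXR-/- islets. Each FXR-/- library was above its same-numbered partner but the groups overlapped, and the log2 fold change was 0.27 (SE 0.106) with an adjusted p of 0.461 in edgeR.

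The core subunits *Ndufs3* and *Ndufs8* also had overlapping genotypes. *Ndufs3* was at 48.3, 45.1 and 48.5 CPM in FXR+/+ and 41.2, 53.6 and 45.6 CPM in FXR-/- islets, and its log2 fold change was -0.02 (SE 0.105). *Ndufs8*, which holds a pair of iron-sulfur clusters, was at 27.7, 29.6 and 28.0 CPM and then 29.0, 33.2 and 31.9 CPM, with a log2 fold change of 0.14 (SE 0.084). *Ndufa6*, an accessory subunit that touches the acyl carrier protein, was at 51.4, 55.9 and 50.0 CPM and then 45.2, 53.0 and 53.1 CPM, with a log2 fold change of -0.06 (SE 0.085). The accessory subunits *Ndufa5*, *Ndufa7* and *Ndufa9* lay at 0.13, 0.04 and 0.03, and for each the genotypes overlapped. Of the 6 core subunits given here for both modules, 3 were above 0 and 3 below.

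**Figure D2:**
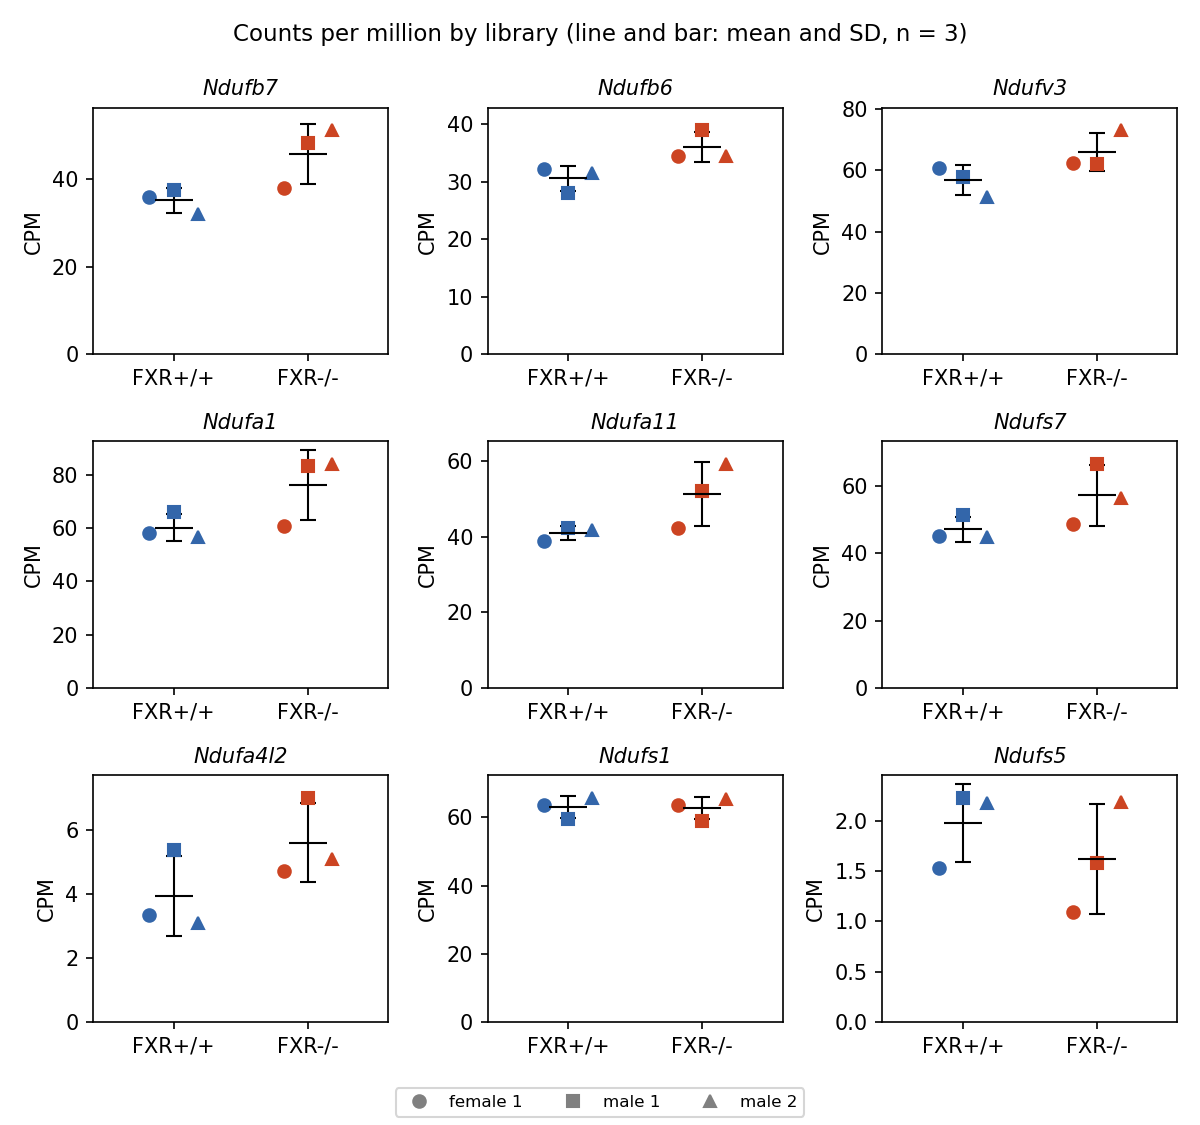
CPM (vertical axes, from 0) of 9 complex I genes in each library, with FXR+/+ in blue and FXR-/- in red, a marker shape for each library number, and the mean with its SD (n = 3). The FXR-/- libraries of *Ndufb7* (38.0 to 51.2 CPM) lie above its FXR+/+ libraries (32.1 to 37.6 CPM), while those of *Ndufs1* lie between 59.1 and 65.3 CPM.

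In the proximal part of the membrane arm, next to the Q module, 8 of 9 genes had a log2 fold change above 0, with a median of 0.10. *Ndufa1*, a small membrane subunit needed for assembly and encoded on chromosome X, was at 58.0, 65.9 and 56.5 CPM in FXR+/+ and 60.9, 83.3 and 84.0 CPM in FXR-/- islets. *Ndufa11*, an accessory subunit embedded in the membrane, was at 38.8, 42.4 and 41.7 CPM and then 42.3, 52.1 and 59.2 CPM. In both genes the male FXR-/- libraries were above every FXR+/+ library and the female one was not. Their log2 fold changes were 0.32 (SE 0.107) and 0.31 (SE 0.096), each with an adjusted p of 0.430 in edgeR. With exon counts summed per gene in place of the gene table, that of *Ndufa11* turned to -0.23, and *Ndufa1* did not pass the filter.

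*Ndufa13*, also known as GRIM-19, was at 46.7, 49.5 and 41.2 CPM in FXR+/+ and 48.7, 61.2 and 55.5 CPM in FXR-/- islets, for a log2 fold change of 0.26 (SE 0.109). Its transcript shares 30.0% of its length with the neighbouring gene *Tssk6*, so that the counts of these genes may be split between them. *Ndufc2* spread widely between the FXR-/- libraries, at 51.8, 77.4 and 60.8 CPM against 59.7, 57.7 and 63.8 CPM, and its log2 fold change was 0.06 (SE 0.125). The remaining accessory subunits of this part, *Ndufa8*, *Ndufc1*, *Ndufa3* and *Ndufa10*, lay between 0.00 and 0.13, and *Ndufa10* had nearly equal means of 34.3 CPM in both genotypes.

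*Ndufs5* had the lowest log2 fold change of all 43 genes, -0.30 (SE 0.244), and also the fewest counts. It was at 1.53, 2.23 and 2.18 CPM in FXR+/+ and 1.09, 1.58 and 2.19 CPM in FXR-/- islets, which overlapped. A processed pseudogene, *BC002163*, matches 46.9% of its transcript at 95% identity or more. The value of *Ndufs5* is therefore uncertain, and low counts here need not mean little mRNA of this subunit. Such matches to other genes or pseudogenes were found for 16 of the 43 genes. They covered more of the transcript in *Ndufs3* (75.7%), *Ndufb11* (62.9%) and *Ndufs6* (61.3%), whose values are uncertain in the same way.

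The distal part of the membrane arm is made of the Ndufb subunits and of *Ndufab1*, the mitochondrial acyl carrier protein. Of its 11 genes 10 were above 0, with a median log2 fold change of 0.12. *Ndufb7* was at 36.0, 37.6 and 32.1 CPM in FXR+/+ and 38.0, 48.2 and 51.2 CPM in FXR-/- islets, where the female FXR-/- library lay just above the highest FXR+/+ library. Its log2 fold change of 0.37 (SE 0.117) had an adjusted p of 0.430 in edgeR.

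*Ndufb6* was at 32.1, 28.1 and 31.5 CPM in FXR+/+ and 34.5, 38.9 and 34.4 CPM in FXR-/- islets, with no overlap. The log2 fold change of *Ndufb6* was 0.23 (SE 0.099), with an adjusted p of 0.480 in edgeR, and its transcript shares 39.0% of its length with the overlapping gene *Smim27*. *Ndufb11*, on chromosome X, was the most abundant of these subunits in CPM, at 102, 105 and 98.0 in FXR+/+ and 101, 114 and 116 in FXR-/- islets. *Ndufb5* was the one gene of the group below 0, at -0.01 (SE 0.079). The other 7 genes of the group, *Ndufb10*, *Ndufb2*, *Ndufb3*, *Ndufb4*, *Ndufb8*, *Ndufb9* and *Ndufab1*, lay between 0.01 and 0.17, each with overlapping genotypes.

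The 7 assembly factors showed no common direction, with 4 above 0, 3 below and a median log2 fold change of 0.05. *Ndufaf7*, a methyltransferase, was at 17.3, 18.7 and 20.3 CPM in FXR+/+ and 18.3, 17.0 and 18.8 CPM in FXR-/- islets, with a log2 fold change of -0.05 (SE 0.105). *Ndufaf5*, which hydroxylates the product of *Ndufs7*, had a log2 fold change of 0.05 (SE 0.161). *Ndufaf4*, which acts with the product of *Ndufaf3* in assembling the Q module, had the lowest value, -0.13 (SE 0.147). It was at 13.0, 11.1 and 15.5 CPM in FXR+/+ and at 12.1, 12.4 and 11.7 CPM in FXR-/- islets. The FXR-/- libraries thus lay within the range of FXR+/+.

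*Ndufaf1*, a factor of membrane arm assembly, was at 7.46, 6.39 and 7.80 CPM in FXR+/+ and 7.90, 6.10 and 7.15 CPM in FXR-/- islets, a log2 fold change of -0.04 (SE 0.153). *Ndufaf2*, which acts when the N module is added, had the highest value of the group, 0.21 (SE 0.168), which turned to -0.41 with exon counts summed per gene, and *Ndufaf6* and *Ndufaf3* were at 0.13 and 0.07. Of 13 further assembly factors whose symbols do not start with Nduf, 1 was above 0, or 7.69% against 51.6% of all genes, and 12 below. Their median log2 fold change was -0.06 and none was called in edgeR. The genotypes did not overlap for 4 of the 13, or 30.8%, against 15.4% of all genes. These were *Lyrm2*, *Foxred1*, *Tmem186* and *Nubpl*, each lower in FXR-/- islets. The largest differences among the 13 were those of *Foxred1*, -0.36 (SE 0.125, adjusted p = 0.450 in edgeR), and *Nubpl*, -0.28 (SE 0.162, adjusted p = 0.544 in edgeR), which delivers iron-sulfur clusters to the complex.

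The last pair of genes carry the Nduf name without being plain members of the enzyme. *Ndufa4* is now assigned to complex IV, and it was at 60.1, 59.4 and 61.1 CPM in FXR+/+ and 59.5, 62.4 and 69.3 CPM in FXR-/- islets, with a log2 fold change of 0.08 (SE 0.081). Its paralog *Ndufa4l2* is known as a gene induced by hypoxia. *Ndufa4l2* was at 3.32, 5.35 and 3.09 CPM in FXR+/+ and 4.70, 6.99 and 5.09 CPM in FXR-/- islets. Each FXR-/- library exceeded the FXR+/+ library of the same number while the groups overlapped. Its log2 fold change of 0.52 (SE 0.245) was the largest of the 43 and had an adjusted p of 0.490 in edgeR. The stellate cell and pericyte markers, 8 genes, summed after scaling to 0.0156% to 0.0269% in FXR+/+ and 0.0236% to 0.0306% in FXR-/- libraries. Their part in the value of *Ndufa4l2* was not tested.

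Taken over the 43 genes, 34 had a log2 fold change above 0 and 9 below, which is 79.1% against 51.6% of all genes tested. The differences were small: 33 of the 43 were within 0.2 of 0, and the median was 0.10 against 0.01 for all genes. This split depended on the scaling, since with library size alone 22 genes were above 0 and 21 below, and the medians were 0.01 for these genes and -0.09 for all genes. Most genes tested were thus below 0 in that fit. A change of scaling moves all genes by nearly the same amount. The gap between the medians therefore stays alike and is no check of the shift.

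It also differed between the pairs of libraries. In the female pair 18 of the 43 genes were higher in FXR-/- and the median log2 ratio was -0.02. In the male 1 pair 34 were higher with a median of 0.16, and in the male 2 pair 37 with a median of 0.18. Over all genes tested the medians of the 3 pairs lay between -0.003 and 0.02. The 43 genes summed to 1633, 1653 and 1616 CPM in FXR+/+ and 1603, 1861 and 1848 CPM in FXR-/- islets. On this scale the female FXR-/- library was below every FXR+/+ library and the male ones above. This order depends on the scaling factors, by which library sizes are multiplied. They were 1.07, 0.979 and 1.05 in FXR+/+ and 1.08, 0.892 and 0.944 in FXR-/- libraries. The low factors of the male FXR-/- libraries raise their CPM.

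A test of whether the genotype difference itself differed between the sexes called none of the 43 genes, nor any gene in the table (0%), in edgeR. The female minus male difference in log2 fold change was negative for 39 of the 43 genes, against 50.4% of all genes. With 1 female library per genotype, sex and the single library cannot be told apart in these values. At an unadjusted p below 0.05 the interaction gave 1 of the 43, *Ndufa2*, against 1.48% of all genes.

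**Figure D3:**
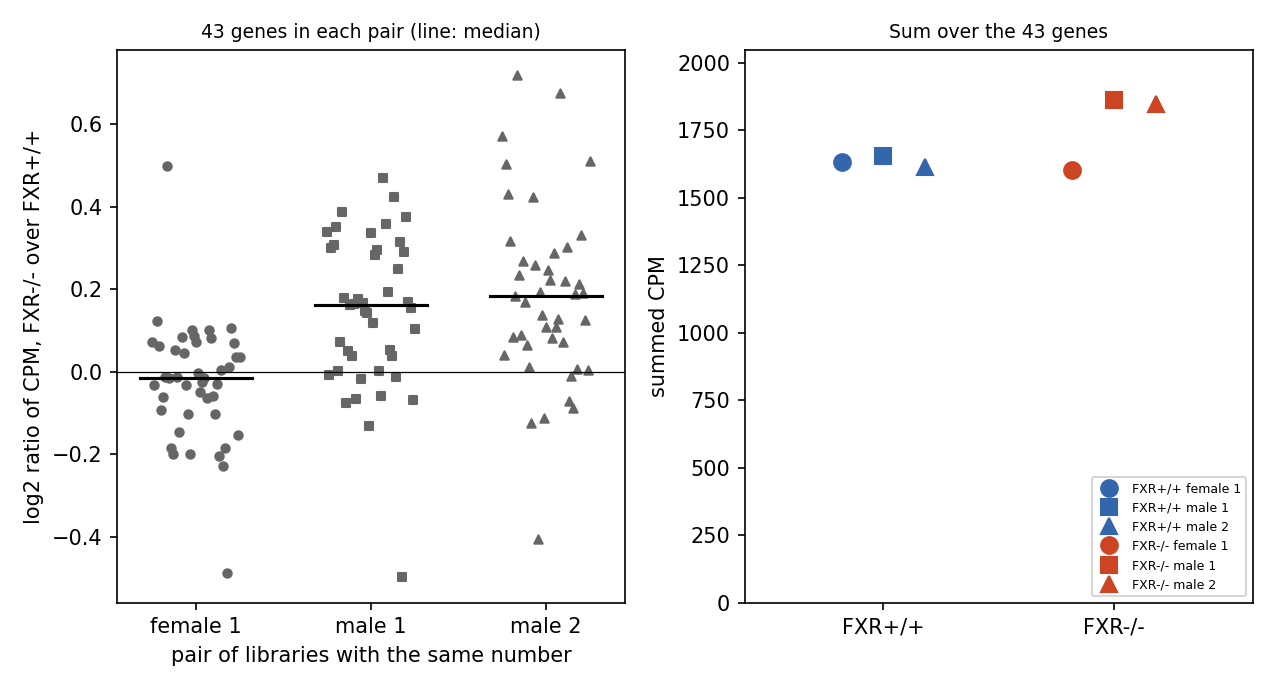
Left, the log2 ratio of CPM in FXR-/- over FXR+/+ (vertical axis) of the 43 genes in each pair of same-numbered libraries, with the median as a line. The medians are -0.02, 0.16 and 0.18. Right, the summed CPM (vertical axis, from 0) of the 43 genes in each library, at 1603 to 1861 CPM. The order of these sums depends on the scaling.

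Between the sexes, with genotype in the fit, none of the 43 genes was called in edgeR, against 0.0547% of all genes. At an unadjusted p below 0.05 there were 3 of the 43, or 6.98%, against 7.48% of all genes: *Ndufc1*, *Ndufa11* and *Ndufs5*, each lower in the female libraries. The log2 difference, female over male, was above 0 for 7 of the 43 genes. Its median was -0.11, against -0.003 for all genes, with 1 female library per genotype. In FXR+/+ the summed CPM of the female library, 1633, lay between those of the males, 1653 and 1616. In FXR-/- it was 1603, below the males at 1861 and 1848. After this scaling the lower female values thus lay mainly in the FXR-/- libraries, and they restate the difference between the pairs. The X-linked genes *Ndufa1* and *Ndufb11* had log2 differences of -0.26 (adjusted p = 0.670) and -0.09 (adjusted p = 0.794) in the female against the male libraries.

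A second table, which counted reads exon by exon, assigned far fewer reads to these genes than the gene table did, with a median of 6.52% of the gene's counts and a range of 0.324% (*Ndufa1*) to 70.7% (*Ndufaf4*). The sources used here do not state how either table assigned reads, nor whether strand was used. The exon values are therefore read as a separate count of the same libraries, not as independent samples. Exons were listed for 42 of the genes, all but *Ndufs5*, 226 in all, of which 48 exons in 30 genes had enough counts to be tested. In edgeR none of the 48 was called, against 0.0185% of 26998 exons tested, and with the replicate block none, against 0.485%. A test of each exon against its own gene, chosen after the exon counts were seen, called none of the 31 exons of complex I genes it could test, against 0.00951% of 21035 exons in all. With exon counts summed per gene, 11 of the 38 genes that passed the filter had the other sign than in the gene table, among them *Ndufb2* (-0.59), *Ndufa9* (-0.45) and *Ndufv1* (-0.23), and none was called.

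At an unadjusted p below 0.05 there were 5 of the 48 exons, or 10.4%, against 7.79% of all exons tested. These were exons of *Ndufb6* (log2 fold change 0.91), *Ndufa13* (0.80 and 0.79), *Ndufa4l2* (0.66) and *Ndufa6* (-1.10). The exon of *Ndufb6*, at chr4:40279158-40279421 (GRCm38, minus strand), held 27, 34 and 42 counts in FXR+/+ and 40, 68 and 65 in FXR-/- islets. In CPM of the exon table its libraries overlapped, since FXR-/- female 1 at 4.83 lay below FXR+/+ male 1 at 4.97. The exon of *Ndufa6*, at chr15:82354081-82354291 (GRCm38, minus strand), held 13, 15 and 29 counts without the knockout and then 8, 5 and 10. These came to 1.67, 2.19 and 2.68 CPM against 0.966, 0.790 and 1.24 CPM, with no overlap, and its adjusted p was 0.619 in edgeR. The other exons of *Ndufa6*, a pair further along the transcript, had log2 fold changes of -0.11 and 0.10, near that of the gene table (-0.06).

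Levels were compared between genes only after division by the length of the principal transcript. In FXR+/+ islets *Ndufa1* was highest, at a mean of 143 CPM per kilobase and 135 to 157 in single libraries, followed by *Ndufb11* at 112 ± 3.68 and *Ndufa4* at 98.7 ± 1.37 (SD, n = 3), and the libraries of these 3 genes did not overlap with one another. Below them *Ndufa7*, *Ndufa6*, *Ndufb8* and *Ndufc2* lay between 88.5 and 89.0 CPM per kilobase and could not be ordered. Next was *Ndufb10* at 81.2 ± 2.33, whose libraries overlapped those of *Ndufa7* and *Ndufb8*. Below it *Ndufb9* and *Ndufa11* overlapped one another at 75.8 ± 2.52 and 75.2 ± 3.47 CPM per kilobase.

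The lowest were *Ndufs5* at 2.91 ± 0.570, *Ndufaf4* at 3.63 ± 0.614 and *Ndufa4l2* at 4.2 ± 1.33 CPM per kilobase. The libraries of each neighbouring pair in this order overlapped, while those of *Ndufs5* and *Ndufa4l2* did not. The assembly factors had a median level of 5.23 CPM per kilobase, against 35.9 in the N module, 45.2 in the Q module, 44.3 in the proximal and 55.9 in the distal membrane arm. Subunits of one complex thus differed widely in mRNA level per length. Of the 42 neighbouring pairs in this order, 14 had FXR+/+ libraries that did not overlap. Lengths refer to 1 annotated transcript per gene, and a long annotated end lowers the level, as in *Ndufb2* and *Ndufab1* at 8.62 and 7.63 CPM per kilobase.

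**Figure D4:**
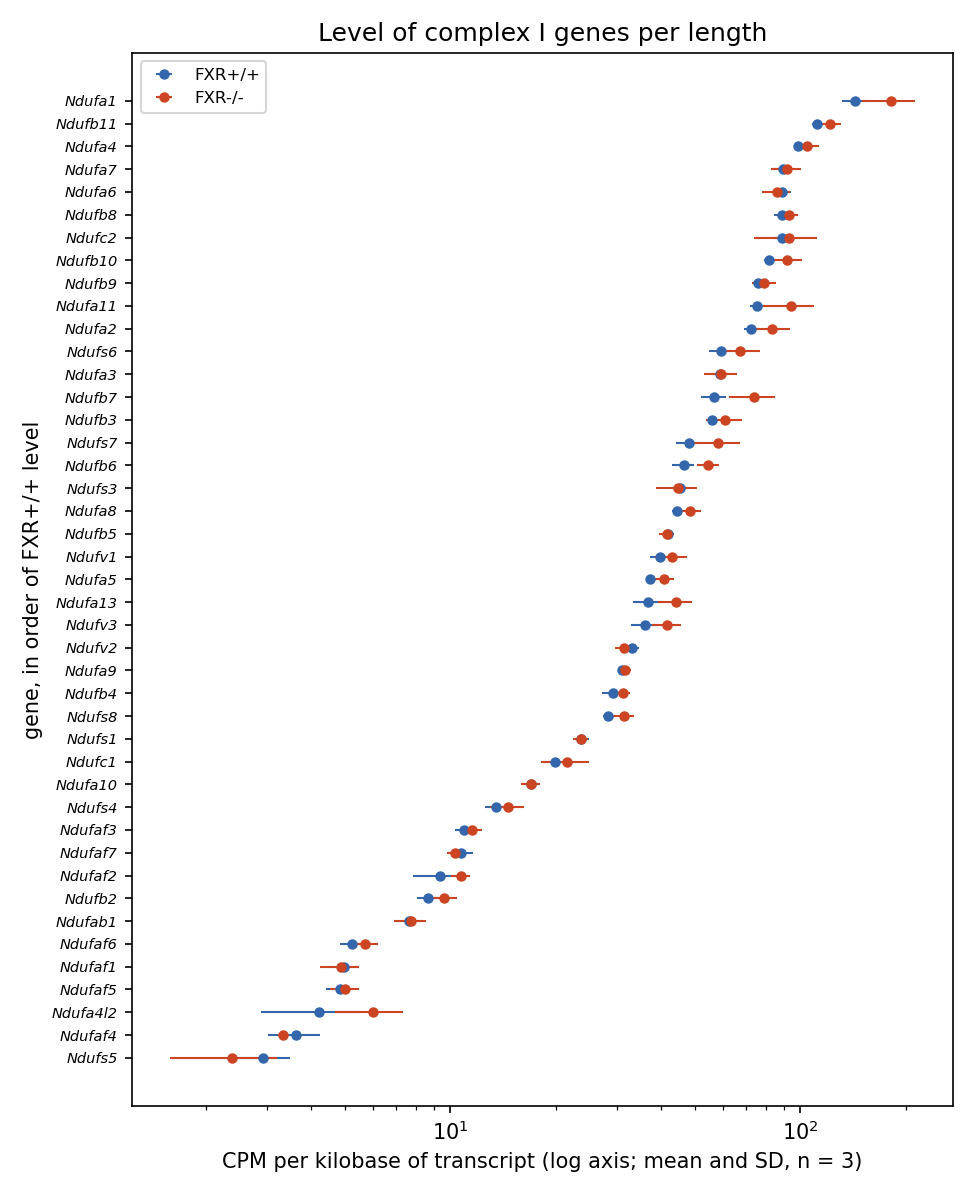
Level of the 43 genes in CPM per kilobase of transcript (horizontal axis, log scale; mean with SD, n = 3), in order of the FXR+/+ level, with FXR+/+ in blue and FXR-/- in red. *Ndufa1* is highest in both genotypes and *Ndufs5* lowest.

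The other complexes of the respiratory chain gave a scale for these values. Of the complex II subunits 3 of 4 had a log2 fold change above 0, of complex III 8 of 9, of complex IV 11 of 15 and of ATP synthase 16 of 17, with medians of 0.12, 0.13, 0.16 and 0.13 against 0.10 for the complex I genes. The sets are not alike, since the complex I genes include assembly factors, *Ndufa4* and *Ndufa4l2*. The complex IV list also held *Cox7a2l* and the ATP synthase list *Atpif1*, which are not plain subunits. None of the 45 genes of these other complexes was called in edgeR. With the replicate block and with DESeq2 the one call among them was *Cox6a2*, the heart and muscle type subunit of complex IV, which differed by 1.12 (SE 0.154) on the log2 scale. Its adjusted p was 0.197 in edgeR and 0.0129 with the replicate block. Next in complex IV was *Cox4i2*, the lung type subunit, at 0.85 (SE 0.287) from 0.936 ± 0.152 CPM in FXR+/+ islets. The largest differences in complex III were those of *Uqcrq*, 0.42 (SE 0.115), and *Uqcr11*, 0.29 (SE 0.088), and in ATP synthase those of *Atp5k*, 0.36 (SE 0.110), and *Atp5e*, 0.35 (SE 0.110). In complex II, which also feeds electrons to ubiquinone, *Sdhc* was at 0.25 (SE 0.114) and *Sdhb* at 0.16 (SE 0.083). The adjusted p of these 6 genes lay between 0.387 and 0.520 in edgeR.

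Of 11 regulators that control transcription of respiratory genes, 5 were above 0 and 6 below, and none was called in edgeR. *Ppargc1a*, the coactivator that drives mitochondrial biogenesis, was at 0.42 (SE 0.334) with 2.13, 2.73 and 2.78 CPM in FXR+/+ and 2.59, 5.57 and 2.23 CPM in FXR-/- islets. Its value thus rests on FXR-/- male 1, as the other FXR-/- libraries lay within the range of FXR+/+. *Tfb2m*, a mitochondrial transcription factor, was at -0.25 (SE 0.109). *Nrf1* and *Gabpa*, which bind promoters of many respiratory genes, were at 0.05 and -0.04.

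The 6 genes with an unadjusted p below 0.05 had transcripts of 419 to 1251 bases, with a median length of 641 bases, against 1005 bases in the 37 other genes. Over the 43 genes the log2 fold change and the transcript length had a Spearman correlation of -0.34 and the log2 length a Pearson correlation of -0.30, as a description over genes that share the same 6 libraries. Without the assembly factors these were -0.22 and -0.18 over 36 genes. The part of transcript length in these values was not tested.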

How the data were processed

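Polyadenylated RNA of islets was sequenced in 6 libraries, 3 from FXR+/+ and 3 from FXR-/- mice. The deposited tables give raw counts per gene and, in a second table, raw counts per exon, which the authors made from aligned reads; per the labels the aligner was HISAT, and the genome build and the counter are not given in the sources used here. Of the 226 exons listed for the genes described, 157 had exactly the boundaries of the principal GENCODE vM21 transcript on GRCm38, which was used for positions and lengths. Further tables hold the authors' own DESeq comparison of the genotypes (fold changes and p-values), which was not used.

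Counts were tested with edgeR 4.0.16 in R 4.3.3 (filterByExpr with a minimum count of 10, TMM scaling, glmQLFit and glmQLFTest, sex and genotype as terms) with Benjamini-Hochberg adjustment over all genes or exons, called below 0.05. The prior degrees of freedom were 4.43 beside 3 residual. CPM are counts divided by the TMM-scaled library size, and SE is the log2 fold change over the root of F. Alternatives were DESeq2 1.42.0, other scalings, filters and covariates, each library left out, and a replicate block. Same-numbered libraries deviated together (correlations of 0.373, 0.419 and 0.346, the other 6 pairs at most 0.0628). Deviations were taken from the mean of each genotype, so that positive values in some pairs lower the others. Male libraries of unlike number correlated at -0.106 and -0.295. The labels state no pairing. It cannot be told apart from shared sex in the female pair, nor from acinar content in any pair. Pairs by number are therefore only a way to read the values. No 2 libraries agreed within sampling noise (chi-square per degree of freedom of 15.9 or more). Near-identical copies were sought with blastn 2.17.0 at 95% identity over 100 bases. The scripts were tested on simulated data.

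Depth was 20629306 to 30139235 counts per library, and counting error is only part of the spread between libraries. All 43 genes are named; values per library are given by rule for core subunits, *Ndufa4*, *Ndufa4l2*, the 6 largest and 6 smallest changes, the 3 highest and 3 lowest levels and those whose genotypes did not overlap, and for *Ndufc2*, chosen after its values were seen. Genes and lists were chosen with earlier results of these data known. One further gene of the complex is not reported here, and all counts over complex I genes leave it out, while the fits kept the whole table.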

Additional observations from a re-analysis of the deposited data

How the results depend on the processing

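The number of complex I genes called was 0 in edgeR's quasi-likelihood test and 0 under every alternative tried, DESeq2, the replicate block and leaving out each library in turn included. At an unadjusted p below 0.05 edgeR gave 6. With library size alone 22 of the 43 genes were above 0 and 21 below, in place of 34 and 9. The median of all genes was -0.09 in that fit, so that most genes were below 0. With exon counts summed per gene 15 of the 38 genes that passed the filter were below 0. Leaving out each library gave 32 to 37 genes above 0 and 6 to 11 below, with medians of 0.06 to 0.16; the highest medians came without a female library. The median over the alternatives that kept all libraries lay between 0.01 and 0.11, and for males alone it was 0.16. The sign was the same under every alternative for 19 of the 43 genes, of which 17 were above 0. The number of exons of complex I genes called was 0 in every fit of the exon table, in edgeR, with 5 at an unadjusted p below 0.05. Between the sexes 0 of the 43 genes were called under every setting tried, with 3 at an unadjusted p below 0.05. *Ndufs5* rests on 259 counts in all, which limits its precision. The replicate block changed no call among complex I genes, with a count of 0 genes and 0 exons.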
